A study of Homo sapiens with 6 samples.

Results

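The genes described here are 31 amino acid transporters, chosen by name as carriers of the plasma membrane, of lysosomes and other inner membranes, and of mitochondria, of 63140 genes listed in the deposited tables. All 31 were found in the tables, and 28 of them had enough counts to be tested, of 14451 genes tested. The experiment was RNA-seq of BT-549, a human triple negative breast cancer cell line that the labels call epithelial and wild type, and asked how a medium taken from fat cells changes its transcripts. Cells were grown for 24 h in adipocyte conditioned medium (ACM, 3 libraries) or in unconditioned medium (UCM, 3 libraries). The sample labels give ACM at 50%, whereas the study's supplement describes undiluted ACM for RNA-seq. ACM was an alpha-MEM-based medium with oleate, albumin, insulin and low serum conditioned by OP9 mouse cells during their differentiation into adipocytes, and the makeup of UCM is not given in the sources used here. Amino acids supplied by the base medium, serum, oleate and insulin may thus differ along with the adipocyte secretions, and these cannot be told apart in this design. The amino acid content of the media was not analysed here, and in bulk RNA fewer cells with a transcript and less of it per cell cannot be told apart.

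Amino acids do not cross lipid membranes on their own, so each group of them needs carriers, which belong to several solute carrier (SLC) families. Sodium-coupled carriers concentrate amino acids such as glutamine and glycine in the cell. Exchangers then trade them for others, and among these are the heteromeric transporters, in which a light chain that binds the amino acid is joined to a heavy chain that brings it to the cell surface. Cells short of amino acids, or under other stress, translate the transcription factor ATF4, which raises transcription of amino acid carriers and of amino acid synthesis enzymes.

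Total expected counts were 17135288 to 21053257 per library. UCM replicate 1 stood apart from UCM replicates 2 and 3. Over all tested genes its CPM on the log2 scale (read counts scaled to a common library total) correlated at 0.986 with ACM replicate 1. It correlated at 0.985 and 0.984 with the other UCM libraries, while UCM replicates 2 and 3 correlated at 0.989. ACM replicate 1 in turn correlated at 0.985 with each of the other ACM libraries, slightly below its value with UCM replicate 1. The epithelial markers EPCAM, CDH1, KRT8, KRT18 and KRT19 summed to only 1.3 to 2.8 CPM in any library, and the mesenchymal markers VIM, CDH2 and FN1 to 4070 to 4870 CPM, which goes against the label epithelial. ESR1 and PGR were at 0 in every library and ERBB2 was present. Adipocyte markers summed to at most 0.143 CPM (3 of 5 at 0 in every library), as did endothelial markers. The summed leukocyte markers stood at 12.4 to 29.3 CPM in ACM and 5.11 to 6.73 in UCM. That sum was carried by CD68, a lysosomal protein of macrophages and other cells, while CD3E was at 0 in every library; the part of this difference in the results below was not tested.

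SLC6A9, the glycine carrier GlyT1, SLC1A4, an exchanger of alanine, serine, cysteine and threonine, SLC1A5, the glutamine exchanger ASCT2, and SLC7A11, the cystine and glutamate exchanger xCT, were higher in ACM. SLC36A1, a proton-coupled carrier that exports small amino acids from lysosomes, was lower. The changes ran from 1.32-fold for SLC1A5 to 2.42-fold for SLC7A11 among the higher genes, and SLC36A1 stood 1.5-fold lower. In the edgeR quasi-likelihood test with Benjamini-Hochberg adjustment over all tested genes, 4 members of 28 (14.3%) passed an adjusted p of 0.05 as higher in ACM, against 3.35% of all genes tested, and 1 (3.57%) as lower, against 2.21%. Without UCM replicate 1, there were 6 higher and 1 lower, while the calls over all genes went from 484 higher and 320 lower to 738 and 572. The median log2 fold change of the tested members was 0.15, against -0.011 over all tested genes. It was -0.001 on log2(TPM + 1), 0.032 with effective lengths as offsets and 0.061 without ACM replicate 2, so that neither its size nor its sign held over the settings tried. With the study's limits for p and fold change, here applied to the unadjusted p of edgeR (0.05) and a log2 fold change of 0.58, 5 members were higher (SLC6A9, SLC1A4, SLC7A11, SLC43A1 and SLC7A2), against 4.12% of all genes tested, and 1 was lower (SLC36A1), against 1.71%. Without any model, the 3 ACM libraries all lay above the 3 UCM libraries in CPM for 10 members (35.7%), against 13.9% of all genes, and all below for 8 members (28.6%), against 15.1%.

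**Figure D1:**
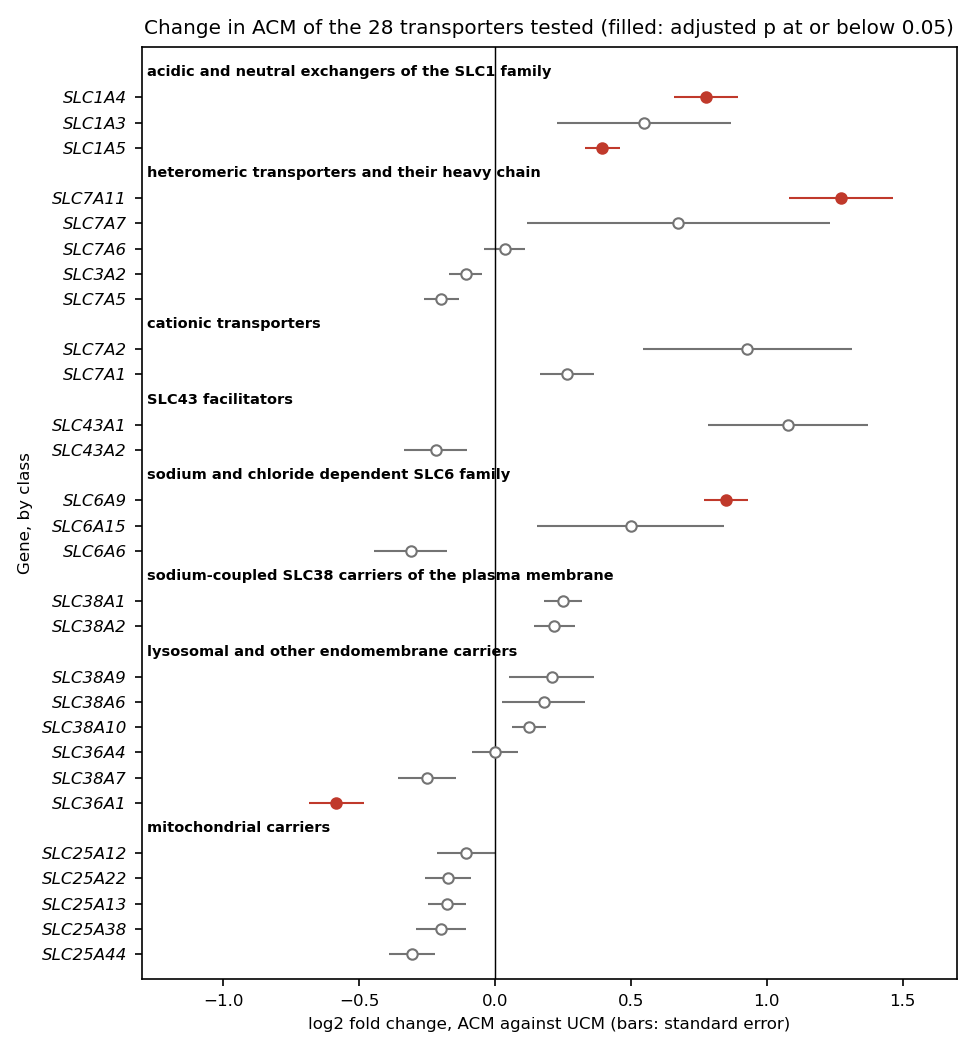
Log2 fold change in ACM against UCM (horizontal axis) of the 28 transporters tested, by class, with bars for the standard error and filled points for an adjusted p at or below 0.05. The 4 filled points to the right of 0 are SLC1A4, SLC1A5, SLC7A11 and SLC6A9, the filled point to the left is SLC36A1 at -0.58, and all 5 mitochondrial carriers lie left of 0 with none filled.

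ATF4 acts with partners of the C/EBP family on a composite DNA element whose core can be written TGATGNAA. RefSeq windows of 300 bases, from 250 before to 50 after an annotated start (GRCh38.p14), were available for 27 members, in 51 windows. They were searched on both strands for this element and for TGACNNNGC, the core of the antioxidant response element. In no window of a member did matches of these motifs overlap. TGATGNAA was found in 1270 of 35116 windows of all genes (3.62%), which belonged to 4.46% of genes. It was found in 6 of the 51 windows of members, which belonged to 6 members: SLC1A3, SLC1A4, SLC1A5, SLC38A1, SLC3A2 and SLC7A1. TGACNNNGC was found in 13.3% of all windows and 16.1% of genes. Among members it was found in 9 of the 51 windows, which belonged to 9 members: SLC1A3, SLC1A5, SLC25A13, SLC25A22, SLC3A2, SLC7A1, SLC7A5, SLC7A6 and SLC7A7. The members had 51 windows for 27 genes, against 35116 for 27305 genes in all, so the shares of genes are not matched. The windows printed are those of SLC1A4 and SLC1A5 that hold TGATGNAA, shown because both genes were higher in ACM, and that of SLC6A9, which had the smallest p of the members and holds neither motif. Capitals mark the match to TGATGNAA, and each window is read 5′ to 3′ on the strand of its gene.
SLC1A4, chr2:64989149-64989448, plus strand: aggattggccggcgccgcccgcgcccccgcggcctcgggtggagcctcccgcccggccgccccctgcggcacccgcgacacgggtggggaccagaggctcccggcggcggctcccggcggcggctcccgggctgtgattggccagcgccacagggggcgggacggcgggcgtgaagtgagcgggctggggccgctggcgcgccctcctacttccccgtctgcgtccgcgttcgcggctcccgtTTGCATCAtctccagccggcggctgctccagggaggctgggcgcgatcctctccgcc
SLC1A5, chr19:46784765-46785064, minus strand: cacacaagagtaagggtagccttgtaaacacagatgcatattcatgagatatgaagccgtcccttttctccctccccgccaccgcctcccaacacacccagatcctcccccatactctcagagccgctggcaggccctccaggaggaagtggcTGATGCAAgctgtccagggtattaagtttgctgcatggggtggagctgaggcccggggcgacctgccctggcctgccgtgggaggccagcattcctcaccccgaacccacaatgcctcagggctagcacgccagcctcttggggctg
SLC6A9, chr1:44031413-44031712, minus strand: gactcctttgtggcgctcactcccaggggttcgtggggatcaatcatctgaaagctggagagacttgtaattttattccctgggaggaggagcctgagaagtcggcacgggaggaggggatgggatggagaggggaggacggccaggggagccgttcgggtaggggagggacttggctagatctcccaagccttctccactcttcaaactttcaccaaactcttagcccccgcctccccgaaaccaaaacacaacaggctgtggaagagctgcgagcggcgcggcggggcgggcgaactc
In SLC1A4 the match is the reverse complement, at chr2:64989392-64989399, and its last base is the first base of the canonical transcript of GENCODE 44. In SLC1A5 it lies at chr19:46784904-46784911, in an annotated exon of the gene and 3690 bases downstream of the canonical start, so that this window belongs to an internal start. The other windows of SLC1A4 and SLC1A5, and both windows of SLC36A1, hold no TGATGNAA. A match of these letters is a description of the window only.

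TPM, which scale reads by gene length as well as by library total, were used to compare levels between transporters. In UCM, the most abundant members were SLC3A2, the heavy chain of the heteromeric transporters, at 261 ± 4.57 TPM (SD, n = 3), SLC7A5, the light chain LAT1 that carries leucine and other large neutral amino acids, at 206 ± 2.33, SLC38A2, the sodium-coupled glutamine and alanine carrier SNAT2, at 191 ± 8.01, and SLC1A5 at 159 ± 3.42. The libraries of each of these did not overlap with those of the next. SLC38A10, an endomembrane carrier, followed at 62.2 ± 1.74 TPM, and from there to SLC38A1 at 47.0 ± 2.22 each gene overlapped with the next in the order (SLC7A1, SLC7A6 and SLC43A2 lay between). The remaining members ran down to SLC7A8, which was at 0 in all UCM libraries. Together the 31 transporters summed to 1332 to 1396 TPM in UCM and 1397 to 1427 TPM in ACM, and the 5 most abundant made up 63.3 to 65.1% of the sum in UCM and 63.8 to 65.5% in ACM. SLC1A1, a glutamate carrier (5 to 13 counts per library), SLC38A5, a glutamine and serine carrier (0 to 4), and SLC7A8, the light chain LAT2 (0 or 1), were too low to be tested.

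**Figure D2:**
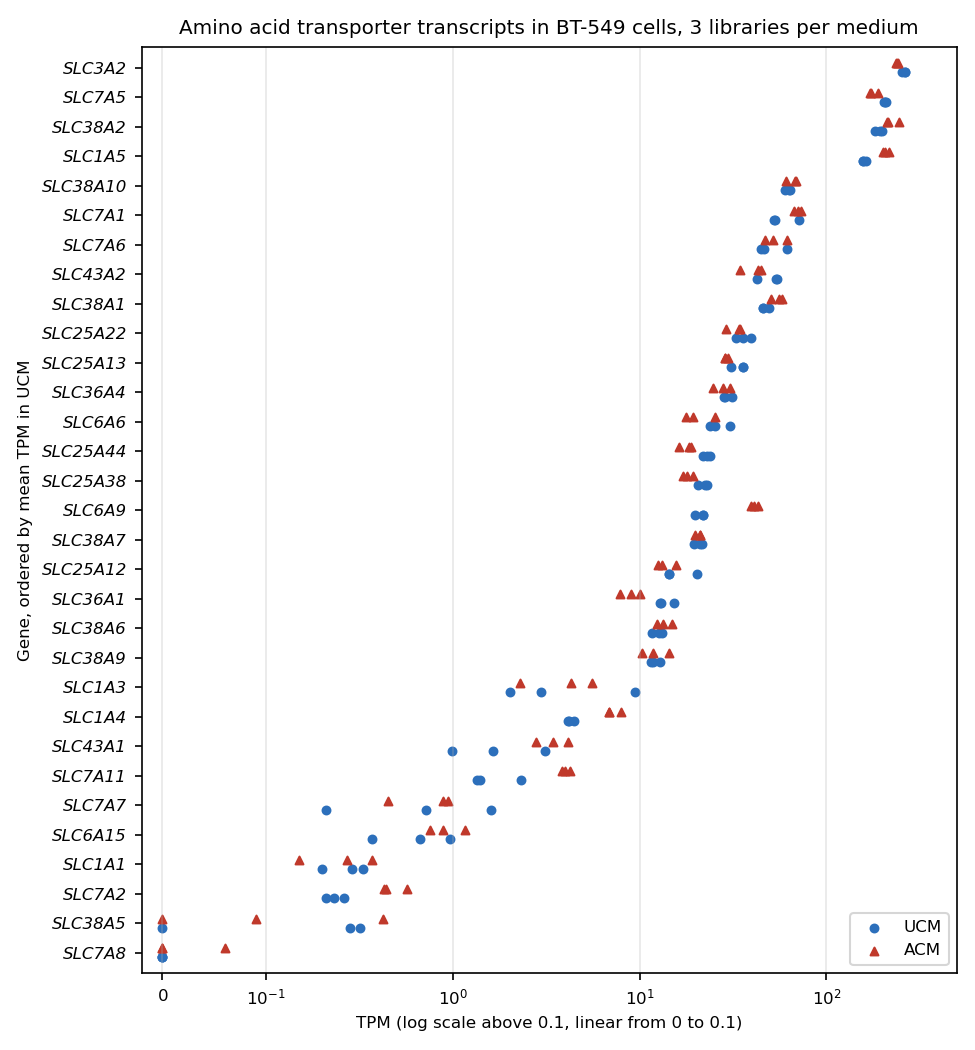
TPM of the 31 transporters in each library (horizontal axis, log scale above 0.1 and linear below it), with genes ordered by their mean in UCM, blue circles for UCM and red triangles for ACM. Levels in UCM span from SLC3A2 at 255 to 263 TPM down to SLC7A8 at 0, and the triangles of SLC6A9, SLC1A4 and SLC7A11 lie wholly to the right of the circles.

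Of the SLC1 family, both neutral amino acid exchangers rose. SLC1A5 (chr19:46774883-46788594, minus strand) stood at 276, 287 and 294.5 CPM in UCM and 364, 381 and 383 CPM in ACM, replicates 1 to 3 in order. Every ACM library was above every UCM library, and the rise was 1.32-fold (log2 fold change 0.40, SE 0.06, adjusted p = 0.00767 by edgeR). Without UCM replicate 2 its adjusted p was 0.0537, at a log2 fold change of 0.40, and over the other settings tried it lay between 2.12e-06 and that value. SLC1A4 (chr2:64988477-65023865, plus strand) was far less abundant, at 12.3, 13.4 and 12.3 CPM in UCM and 20.7, 24.7 and 19.95 CPM in ACM. Its groups did not overlap either, and it rose 1.71-fold (log2 fold change 0.78, SE 0.12, adjusted p = 0.00634 by edgeR). The glutamate carrier SLC1A3 was at 32 to 69 counts per library, with a log2 fold change of 0.55 on counts (adjusted p = 0.340 by edgeR) and of -0.04 on log2(TPM + 1), and its effective length, the length over which RSEM spreads its reads, ran from 282 to 1502 bases between libraries. The summed TPM of the family was 213 to 226 in ACM and 163 to 177 in UCM.

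The heteromeric transporters did not move together. SLC7A11 (chr4:138164097-138242349, minus strand) stood at 14.97, 9.25 and 8.75 CPM in UCM and 25.6, 28.7 and 25.9 CPM in ACM. All ACM libraries were above all UCM libraries, and among the latter UCM replicate 1 was the highest. The rise was 2.42-fold (log2 fold change 1.27, SE 0.19, adjusted p = 0.00915 by edgeR), and the log2 fold change was 1.58 without UCM replicate 1. SLC7A5 (chr16:87830023-87869507, minus strand), the most abundant light chain, was at 611.5, 614 and 615 CPM in UCM and 518, 532 and 556 CPM in ACM. All ACM libraries were below all UCM libraries, but with a log2 fold change of -0.20 (SE 0.06) it missed the threshold (adjusted p = 0.0981 by edgeR). Its processed pseudogene SLC7A5P2 was given only 15 to 42 counts per library, against 9447 to 12906 counts of SLC7A5, and reads of the pair may have been split between them. The heavy chain SLC3A2 (chr11:62856004-62888880, plus strand) was at 297, 298 and 291 CPM in UCM and 275, 275.5 and 272 CPM in ACM, likewise without overlap, with a log2 fold change of -0.11 (SE 0.06, adjusted p = 0.307 by edgeR). SLC7A6, the light chain y+LAT2, which exchanges cationic for neutral amino acids, had a log2 fold change of 0.04 and overlapping groups, and SLC7A7, y+LAT1, had 4 to 21 counts per library and a log2 fold change of 0.68 (adjusted p = 0.514 by edgeR).

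**Figure D3:**
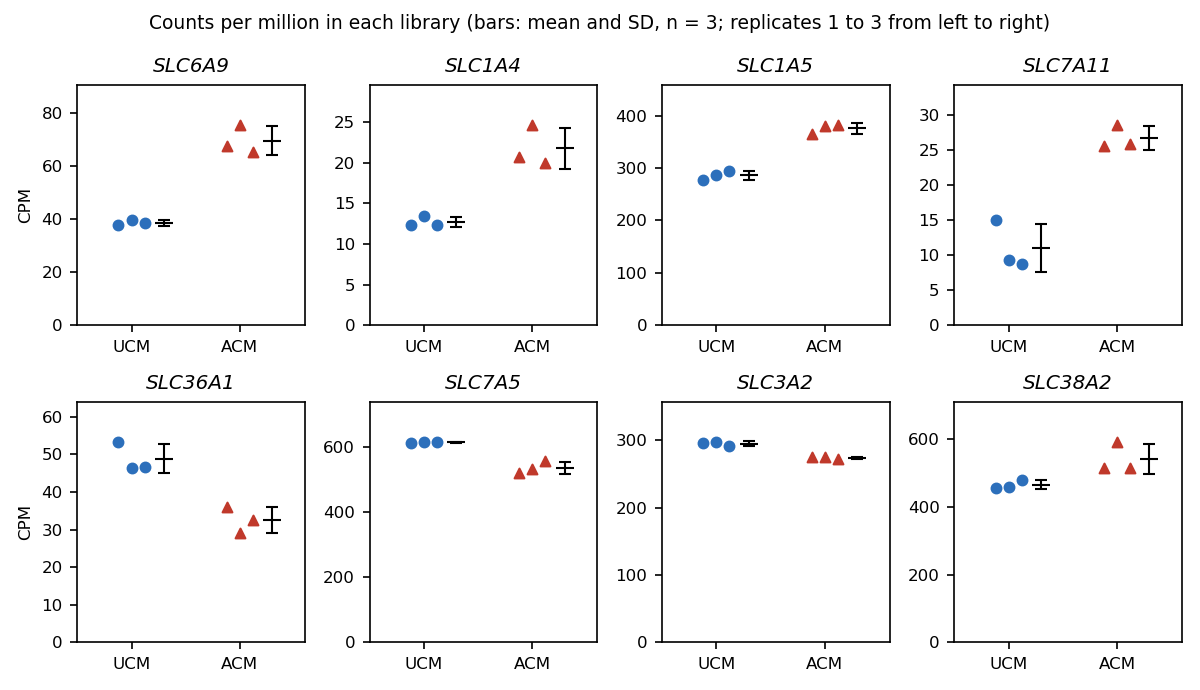
CPM (vertical axes from 0) of the 5 transporters that passed the test and of SLC7A5, SLC3A2 and SLC38A2 in each library, with blue circles for UCM, red triangles for ACM, replicates 1 to 3 from left to right, and bars for the mean and SD (n = 3). In all 8 panels the groups are apart: ACM is the higher group for SLC6A9, SLC1A4, SLC1A5, SLC7A11 and SLC38A2 and the lower one for SLC36A1, SLC7A5 and SLC3A2, of which SLC38A2, SLC7A5 and SLC3A2 missed an adjusted p of 0.05.

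The opposite directions of these genes showed in the proportions between their TPM. Among the 5 light chains, SLC7A11 made up 0.852, 0.557 and 0.524% of the summed TPM in UCM and 1.62, 1.88 and 1.64% in ACM. It thus remained a small share of the light chain transcripts in both media, although the groups were apart. SLC1A5 over SLC7A5 was 0.752, 0.777 and 0.787 in UCM and 1.175, 1.19 and 1.15 in ACM, so that SLC7A5 was the more abundant of the pair in every UCM library and SLC1A5 in every ACM library. For these 2 ratios and that of SLC36A1 over SLC36A4 the exact two-sided permutation test gave p = 0.1, the smallest that 3 libraries against 3 allow. Their numerators, SLC7A11, SLC1A5 and SLC36A1, had already passed edgeR in the same libraries, so these values are no separate evidence. SLC3A2 over the summed light chains was 1.01 ± 0.05 in UCM and 1.01 ± 0.03 in ACM (SD, n = 3; p = 0.9 by the same exact permutation test). The share of SLC7A5 among light chains was 76.3 to 81.4% in UCM and 72.25 to 77.05% in ACM, overlapping (p = 0.3, exact permutation test). In all 6 ratios were computed, the other being the share of the 5 most abundant members given above, and no adjusted value could fall below 0.1.

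**Figure D4:**
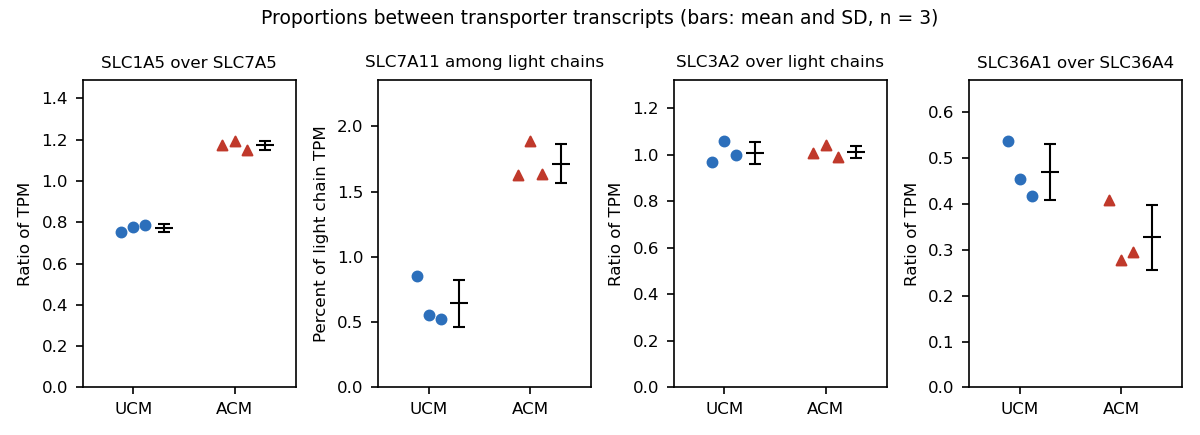
Ratios between TPM of transporters in each library (vertical axes from 0), with blue circles for UCM, red triangles for ACM, and bars for the mean and SD (n = 3). SLC1A5 over SLC7A5 and the percent of SLC7A11 among light chains are higher in every ACM library, SLC36A1 over SLC36A4 is lower in every ACM library, and SLC3A2 over light chains overlaps around 1.01.

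No cationic amino acid transporter passed the test. SLC7A1, the main arginine and lysine carrier CAT1, stood at 337, 261 and 258 CPM in UCM and 345, 342 and 343 CPM in ACM. UCM replicate 1 lay close to the ACM libraries and the other UCM libraries well below them. The log2 fold change was 0.27 (SE 0.10, adjusted p = 0.144 by edgeR), and without UCM replicate 1 it was 0.41 (SE 0.07, adjusted p = 0.0040). With all libraries kept, the adjusted p was 0.0148 when every gene with at least 1 count was tested, and over all settings tried it ran from 0.00284 to 0.415. SLC7A2, the related carrier CAT2, was at 14 to 43 counts per library and had a log2 fold change of 0.93 (SE 0.38, adjusted p = 0.178 by edgeR), with overlap between the groups in CPM.

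The SLC43 facilitators, which let large neutral amino acids pass without an ion gradient, had fold changes of opposite sign. SLC43A1, LAT3, was at 1.61, 2.10 and 1.52 CPM in UCM and 3.66, 4.79 and 2.61 CPM in ACM. The groups were apart at 26 to 85 counts per library, and the log2 fold change was 1.08 (SE 0.29, adjusted p = 0.0604 by edgeR). Its adjusted p lay at 0.0286 with DESeq2 and at 0.0499 without ACM replicate 3, within a range of 0.00816 to 0.270 over all settings tried, and its TPM overlapped between the groups. SLC43A2, LAT4, was at 68.6 to 88.4 CPM in UCM and 60.4 to 74.95 CPM in ACM, with a log2 fold change of -0.22 (adjusted p = 0.302 by edgeR), and an adjusted p of 0.0396 to 0.664 over all settings tried, the lowest without both libraries of replicate number 1.

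In the SLC6 family, SLC6A9 (chr1:43991500-44031467, minus strand) had the smallest p of all members. It stood at 37.6, 39.6 and 38.4 CPM in UCM and 67.5, 75.5 and 65.0 CPM in ACM. The groups were far apart compared with the spread within each, and the rise was 1.80-fold (log2 fold change 0.85, SE 0.08, adjusted p = 0.00100 by edgeR). It overlaps CCDC24 (64 to 124 counts per library) and a long noncoding RNA (60 to 128 counts) on the opposite strand, against 658 to 1421 counts of its own. The long noncoding RNA was also higher in ACM (8.69 to 9.93 TPM, against 4.93 to 6.12 in UCM), and CCDC24 was lower (4.04 to 5.45 TPM, against 6.18 to 8.0). Whether counting used strand is not given in the sources used here, and the part of these overlaps in the values of SLC6A9 was not tested. SLC6A15, a carrier of branched-chain amino acids and proline, was low (0.753 to 1.22 CPM in UCM and 1.24 to 1.58 CPM in ACM) and had a log2 fold change of 0.50 (adjusted p = 0.427 by edgeR). The taurine carrier SLC6A6 ran the other way, at 81.0 to 106 CPM in UCM and 62.7 to 84.9 CPM in ACM, with overlap and a log2 fold change of -0.31 (adjusted p = 0.210 by edgeR). Its adjusted p was 0.00747 when every gene with at least 1 count was tested and 0.0368 without both libraries of replicate number 1, and the highest over all settings tried was 0.436.

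The plasma membrane SLC38 carriers, which take up glutamine and other small neutral amino acids with sodium, include 2 abundant members, SLC38A1 and SLC38A2, which stood higher in every ACM library than in any UCM library without passing the test, while SLC38A5 overlapped at 0 to 4 counts. SLC38A2 (chr12:46358188-46372773, minus strand) was at 455.5, 460 and 480.5 CPM in UCM and 516, 592 and 515 CPM in ACM. The groups were apart, with ACM replicate 2 the highest, and the log2 fold change was 0.22 (SE 0.07, adjusted p = 0.114 by edgeR). SLC38A1, SNAT1, was at 204 to 221 CPM in UCM and 235 to 266 CPM in ACM, with a log2 fold change of 0.25 (SE 0.07, adjusted p = 0.0680 by edgeR). Its call depended on the setting: the adjusted p was 0.0304 with DESeq2 and 0.0296 without UCM replicate 1 (log2 fold change 0.30), within a range of 0.00846 to 0.255 over all settings tried. The summed TPM of SLC38A1, SLC38A2 and SLC38A5 was 228 to 244 in UCM and 261 to 301 in ACM.

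Among the carriers of lysosomes and other endomembranes, SLC36A1 (chr5:151437046-151492379, plus strand) was the only one that passed the test. It stood at 53.35, 46.5 and 46.8 CPM in UCM and 36.1, 29.1 and 32.6 CPM in ACM. All ACM libraries were below all UCM libraries, and it fell by 0.58 on the log2 scale (SE 0.10, adjusted p = 0.0111 by edgeR). On log2(TPM + 1), limma gave a log2 fold change of -0.57 with an adjusted p of 0.0613, the highest over all settings tried, of which the lowest was 3.8e-07. The related carrier SLC36A4, at 40.65 to 44.02 CPM in UCM and 38.8 to 43.9 CPM in ACM, had a log2 fold change of 0.00 (SE 0.08), and SLC36A1 over SLC36A4 in TPM was 0.417 to 0.537 in UCM and 0.279 to 0.409 in ACM. SLC38A9, the arginine sensor of the lysosome, and SLC38A6 overlapped between the groups, with log2 fold changes of 0.21 and 0.18. SLC38A10 (chr17:81244811-81295547, minus strand) was at 125, 126 and 134 CPM in UCM and 141, 140 and 139 CPM in ACM, without overlap, and its log2 fold change was 0.12 (SE 0.06, adjusted p = 0.268 by edgeR). In TPM the libraries of SLC38A10 overlapped.

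SLC38A7, which exports glutamine and asparagine from lysosomes, gave different pictures per count and per length. It was at 43.6, 39.1 and 40.8 CPM in UCM and 38.3, 36.2 and 29.4 CPM in ACM, with a log2 fold change of -0.25 (SE 0.11, adjusted p = 0.189 by edgeR) and no overlap. Its effective length was 2723 to 3028 bases in UCM and 2144 to 2564 bases in ACM, also without overlap. In TPM it was at 19.6 to 21.45 in UCM and 19.8 to 21.1 in ACM, and its log2 fold change on log2(TPM + 1) was 0.00. The effective length of SLC6A9 was apart in the same direction (2487 to 2815 bases in UCM, 2293 to 2417 in ACM), and this gene was higher in ACM on both scales.

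**Figure D5:**
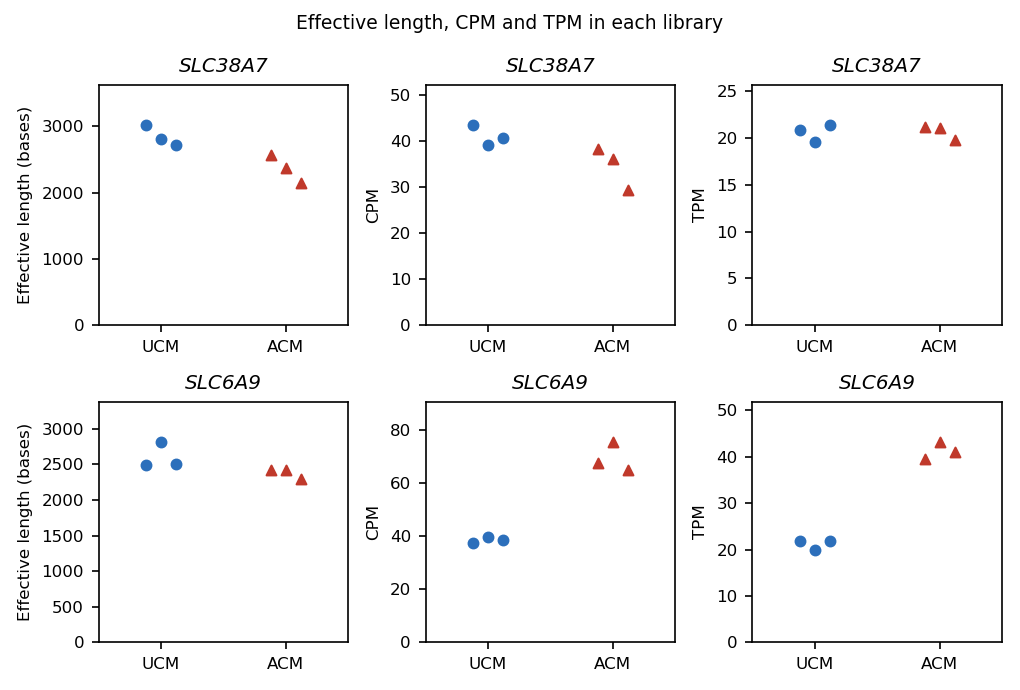
Effective length in bases, CPM and TPM (vertical axes from 0) of SLC38A7 and SLC6A9 in each library, with blue circles for UCM and red triangles for ACM. For SLC38A7 the groups are apart in effective length and CPM but overlap in TPM, and for SLC6A9 they are apart in all 3 quantities.

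The mitochondrial carriers had small negative fold changes, and none passed the test. SLC25A44, a carrier of branched-chain amino acids, had the largest, at 45.7 to 51.2 CPM in UCM and 36.0 to 41.0 CPM in ACM (log2 fold change -0.30, SE 0.09, adjusted p = 0.0672 by edgeR). SLC25A38, a carrier of glycine for heme synthesis, SLC25A13, the aspartate and glutamate carrier citrin, and SLC25A22, a glutamate carrier, had log2 fold changes of -0.20, -0.18 and -0.17. In these 4 genes all ACM libraries were below all UCM libraries in CPM, as in 15.1% of all genes tested, and those of SLC25A22 overlapped in TPM. SLC25A12, the second aspartate and glutamate carrier, overlapped between the groups at a log2 fold change of -0.11, and it overlaps HAT1 on the opposite strand (1093 to 1333 counts per library). The summed TPM of the 5 carriers was 127 to 134 in UCM and 104 to 117 in ACM. None of the 5 carriers passed DESeq2 either. At an unadjusted p of 0.05 by edgeR SLC25A13 and SLC25A44 were lower, but the share of all genes at this limit was not computed. SLC25A44 had an adjusted p of 0.0317 when every gene with at least 1 count was tested, the lowest over all settings tried, of which the highest was 0.255.

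Genes related to these carriers in amino acid supply were taken from 3 further lists. Of 41 other amino acid carriers, such as the vesicular glutamate carriers and cystinosin, 9 were high enough to be tested and 0 passed edgeR, at an unadjusted p of 0.05 as well as with adjustment, and 0 passed DESeq2. Of 22 genes of the amino acid response (ATF4, its partners, its targets and the upstream kinase EIF2AK4), 11 rose by edgeR (50.0%, against 3.35% of all genes tested). In the same list 1 fell (4.55%, against 2.21%), and the median log2 fold change was 0.345. The 6 with the smallest p were CBS, the first enzyme of transsulfuration, at a log2 fold change of 0.68, SESN2, a leucine sensor that restrains mTORC1, at 0.96, PHGDH, the first enzyme of serine synthesis, at 0.94, NUPR1, a stress-induced regulator, at 0.72, ASNS, asparagine synthetase, at 1.21, and PSAT1, the next enzyme of serine synthesis, at 0.59. Each of these 6 had all ACM libraries above all UCM libraries, which adds little because they were picked by smallest p. In the whole list this held for 16 genes (72.7%), against 13.9% of all genes tested, and 1 gene lay wholly below (4.55%, against 15.1%). The one that fell was ATF5, a factor related to ATF4, at -0.62, named after its value was seen. Of 15 genes of lysosomal amino acid sensing, by which the Rag GTPases and their anchor report amino acids to mTORC1, 0 passed edgeR with adjustment. At an unadjusted p of 0.05 there were 4 lower, but the share of all genes at this limit was not computed, so this count is a description only. DESeq2 called 1 of the 15 lower, against 440 of all 14451 genes tested. This was the Rag GTPase RRAGC (log2 fold change -0.37, adjusted p = 0.0219), at -0.38 and 0.0510 by edgeR, named after its value was seen.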

How the data were processed

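Polyadenylated RNA was sequenced as paired ends from 3 ACM and 3 UCM libraries. The authors used Trim Galore for trimming, STAR for alignment (GRCh38) and RSEM for quantification; versions, annotation and strand setting are not given in the sources used here. The deposited tables, 1 per library, hold expected counts, TPM and effective lengths. A deposited table of the authors' own fold changes and p-values was not used. Identifiers were paired with symbols through GENCODE 44 by stable ID (62541 of 63140 genes).

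Expected counts were rounded, filtered with filterByExpr, scaled by TMM and tested with the quasi-likelihood method of edgeR 4.0.16 in R 4.3.3, without covariates; p-values were adjusted by Benjamini-Hochberg over 14451 genes. The biological coefficient of variation was 0.115. In simulated data for ACM against UCM with 14141 genes, 147 of 193 genes changed at a log2 fold change of 1 (76.2%) were recovered, with 18 false calls and 1 call where nothing was changed. No 2 libraries had counts that agree within sampling noise. UCM replicates 2 and 3 were far closer than any other pair, with a chi-square per degree of freedom of 2.35, against 13.25 to 41.91. Nothing states that wells were separate cultures, so p-values measure only the spread between these samples, which may be technical. DESeq2 1.42.0, limma 3.58.1 on log2 TPM with pseudocounts of 1 and 0.1, other filters and scalings, and leaving out libraries were tried as alternatives. Exact permutation tests used scipy 1.17.1.

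All members were described. Those past an adjusted p of 0.05, and the 5 of the highest mean TPM in UCM, were given by library. Of the other lists, at most 6 called genes were named, by smallest p. Members and lists were chosen with earlier results of these data known. Promoter windows were taken from RefSeq; SLC7A11, SLC6A6, SLC6A15 and SLC7A2 had no entry.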

Additional observations from a re-analysis of the deposited data

How the results depend on the processing

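Of 419 values of single transporters under 15 other settings, 384 were counted as keeping their direction and side of the threshold. Most of these transporters had not passed the main test, so this total says little about the calls. Of the called genes, SLC6A9, SLC1A4 and SLC7A11 passed in all 15 settings, SLC1A5 in 14 and SLC36A1 in 13. SLC36A4, at 0.00 in the main fit, was counted as kept although it ran from -0.093 to 0.063. The count of transporters higher in ACM was 4. It became 7 when every gene with at least 1 count was tested and 7 with a replicate block. It was 6 with DESeq2, 6 with at least 10 counts in every library, and 6 without both libraries of replicate number 1. The count lower in ACM, 1, became 3 with at least 1 count, 0 on log2(TPM + 1), 0 on log2(TPM + 0.1), 4 with a replicate block and 3 when both libraries of replicate number 1 were left out, a setting chosen after seeing the data. The median log2 fold change of 0.152 became -0.001 and 0.038 on TPM with pseudocounts of 1 and 0.1, and 0.032 with effective lengths as offsets. Leaving out 1 library gave 3 to 6 higher (3 without UCM replicate 2, 6 without UCM replicate 1), 1 lower, 18 to 21 apart, and medians from 0.061 (without ACM replicate 2) to 0.189 (without ACM replicate 3). Signs turned for SLC1A3 (-0.044, -0.021 and -0.057 on TPM with each pseudocount and with length offsets), SLC38A7 (0.002, 0.002 and 0.029), SLC7A7 (-0.007 on log2(TPM + 1)), SLC38A9 (-0.005 and -0.006 on TPM) and SLC7A6 (-0.017 to 0.093 leaving out 1 library); none of these genes passed the test in any setting. The cause was not tested.

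That same-numbered libraries were paired is not stated in the sources used here. Their deviations from the group means correlated at 0.318, 0.035 and 0.177 for replicates 1 to 3. The value for replicate 1 was the highest of all ACM and UCM pairs, while ACM replicate 3 correlated best with UCM replicate 2 (0.196). With the replicate block, calls over all genes went from 484 higher and 320 lower to 909 and 703. They were 758 and 440 with DESeq2, 1045 and 679 with at least 1 count, 230 and 132 or 234 and 138 on TPM, 272 and 134 with length offsets, 125 to 738 and 62 to 572 leaving out 1 library, and 1017 and 726 without both libraries numbered 1. Depth limits SLC7A2, SLC7A7, SLC43A1 and SLC6A15, and 3 transporters could not be tested.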
